A study of Homo sapiens with 6 samples.

Results

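The insulin-like growth factor (IGF) binding proteins, the IGF receptors and the protease PAPPA were read from 6 gene expression arrays of MDA-MB-231 cells, a line derived from an invasive breast cancer that lacks oestrogen receptor, progesterone receptor and HER2 overexpression. The members are a gene family and its receptors and protease, picked with earlier results of these arrays known and read by gene symbol: IGFBP1 to IGFBP7, IGF1R, IGF2R and PAPPA, 10 genes with 11 probes of the 19771 genes and 24460 probes on the array. Both lines compared are MDA-MB-231 cells that were transduced with a lentivirus under a CMV promoter, selected with blasticidin and pooled from the surviving clones. MB-231-control expresses the fluorescent protein ZsGreen alone, and MB-231-maspin expresses maspin, a serpin, joined to ZsGreen by a P2A peptide. Each line is represented by 3 arrays, labelled replicates 1, 2 and 3. Each group thus rests on 1 pooled line, so a difference between the lines cannot be told apart from a difference between these pools. The labels do not state that replicates were grown separately, so p-values reflect only how far these arrays scattered, possibly for technical reasons alone.

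IGF1 and IGF2 are secreted growth factors that signal mainly through IGF1R, a receptor tyrosine kinase whose activation feeds the PI3K-AKT and RAS-ERK routes. In the fluid around cells they are held by binding proteins. IGFBP1 to IGFBP6 bind IGFs with high affinity and IGFBP7 with low affinity, and proteases such as PAPP-A, the product of PAPPA, release the factors again by cutting the binding proteins. IGF2R, the cation-independent mannose 6-phosphate receptor, takes IGF2 into the cell for degradation and carries lysosomal enzymes. In breast cancer cells the axis is known for promoting growth and survival.

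Intensities were scaled by the authors to a median of 25 on every array after background subtraction, and a value close to the background was left blank. The arrays held values for 87.1% to 91.3% of their probes, and the background was 67.8 to 70.3 scanner units. A probe was tested, on the log2 scale with limma, where 1 of the groups averaged above 10 and each group had 2 or more measured values, which left 14903 probes. Differences are given as MB-231-maspin minus MB-231-control. SERPINB5, which encodes maspin, lay between 4.11 and 5.61 on the control arrays and between 2.79 and 4.40 on the maspin arrays, below the minimum of 10, with the highest value on a control array. The groups are therefore named by their labels, and whether this probe can detect the transcript made from the vector was not tested. The study assessed maspin in both lines by RT-qPCR and western blot, which are not analysed here. Of the 3 genes listed as abundant in MDA-MB-231 (VIM, CD44 and FN1), all 3 exceeded the minimum and 0 differed at an adjusted p under 0.05 in limma. Of the markers of luminal epithelium 4 of 6 exceeded the minimum (GATA3, FOXA1, EPCAM and CDH1), while ESR1, which encodes the oestrogen receptor, was blank on all 6 arrays and PGR had means of 1.31 in both groups. Of the leukocyte markers on the array 1 of 3 exceeded it (CD79A, with means of 137 and 129), while PTPRC had means of 1.65 and 1.05. Of the fibroblast markers 2 of 4 did (PDGFRB and DCN), with COL1A1 at means of 1.27 and 1.32, and of the endothelial markers 0 of 3. None of these markers passed in limma, and their part in the results was not tested. In bulk RNA, fewer cells of a kind and less RNA per cell cannot be told apart.

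IGFBP4 was the member that differed at an adjusted p under 0.05 in limma, and it was higher in MB-231-maspin. Its proximal promoter is shown with that of IGFBP6, whose arrays separated in the opposite direction. The sequences are the 250 bases before the annotated RefSeq start in build GRCh38.p14, written 5′ to 3′ on the strand of the gene. Capitals mark a GC box, with the letters GGGCGG on either strand. They also mark a TATA box, searched as TATAAA on either strand. Whether these starts are used in MDA-MB-231 cells was not measured.
IGFBP4, chr17:40443200-40443449, plus strand: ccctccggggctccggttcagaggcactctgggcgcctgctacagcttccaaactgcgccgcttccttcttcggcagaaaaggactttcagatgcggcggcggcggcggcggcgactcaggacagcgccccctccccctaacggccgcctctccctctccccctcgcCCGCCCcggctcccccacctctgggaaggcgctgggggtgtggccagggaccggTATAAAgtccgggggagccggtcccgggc
IGFBP6, chr12:53097417-53097666, plus strand: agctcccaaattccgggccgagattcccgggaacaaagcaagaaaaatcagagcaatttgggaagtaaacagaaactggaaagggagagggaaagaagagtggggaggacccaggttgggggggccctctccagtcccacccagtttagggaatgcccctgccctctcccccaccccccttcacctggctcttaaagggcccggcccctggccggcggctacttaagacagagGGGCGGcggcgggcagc
The IGFBP4 stretch held 1 GC box and 1 TATA box and was 71.6% G and C, and the IGFBP6 stretch held 1 GC box and no TATAAA and was 61.2% G and C. Over all 35116 promoter stretches of that length the median was 58.0%. A GC box stood in 42.6% of them and TATAAA in 10.7%. Of the members, 8 matched an entry of the promoter table, with 10 starts in all, and among those 10 starts TATAAA occurred in IGFBP4 and PAPPA. IGFBP1 and IGFBP7 had no entry. These letters describe the sequence and were not tied to the measurements.

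IGFBP4, a binding protein that mostly restrains IGF action, showed the clearest difference of the family. Its normalized intensity was 82.8, 91.2 and 84.0 on control replicates 1, 2 and 3, and 158, 158 and 151 on maspin replicates 1, 2 and 3. Every array labelled MB-231-maspin lay far above every control array, and the arrays within a line lay close together (coefficient of variation 5.34% in MB-231-control and 2.60% in MB-231-maspin). The mean rose from 86.0 ± 4.59 (SD, n = 3) to 155 ± 4.04 (SD, n = 3), a log2 difference of 0.86 (standard error 0.08, adjusted p = 0.00230 from limma). That is a fold of 1.81, with a 95% interval of 1.60 to 2.05. In absolute size the difference exceeded that of 99.6% of the probes tested. IGFBP4 passed under each of the 17 alternative settings, with an adjusted p between 3.71e-04 and 0.0433. It was the 1 member probe of the 10 tested that passed, beside 0.845% of all probes tested (126 of 14903), with 0.51% passing in the upward direction.
The difference was present before scaling as well. The unscaled signal of the IGFBP4 probe was 3.33, 3.64 and 3.43 times the array's background on control replicates 1, 2 and 3, and 6.06, 6.54 and 4.96 times on maspin replicates 1, 2 and 3. The groups did not overlap on that scale either.

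**Figure D1:**
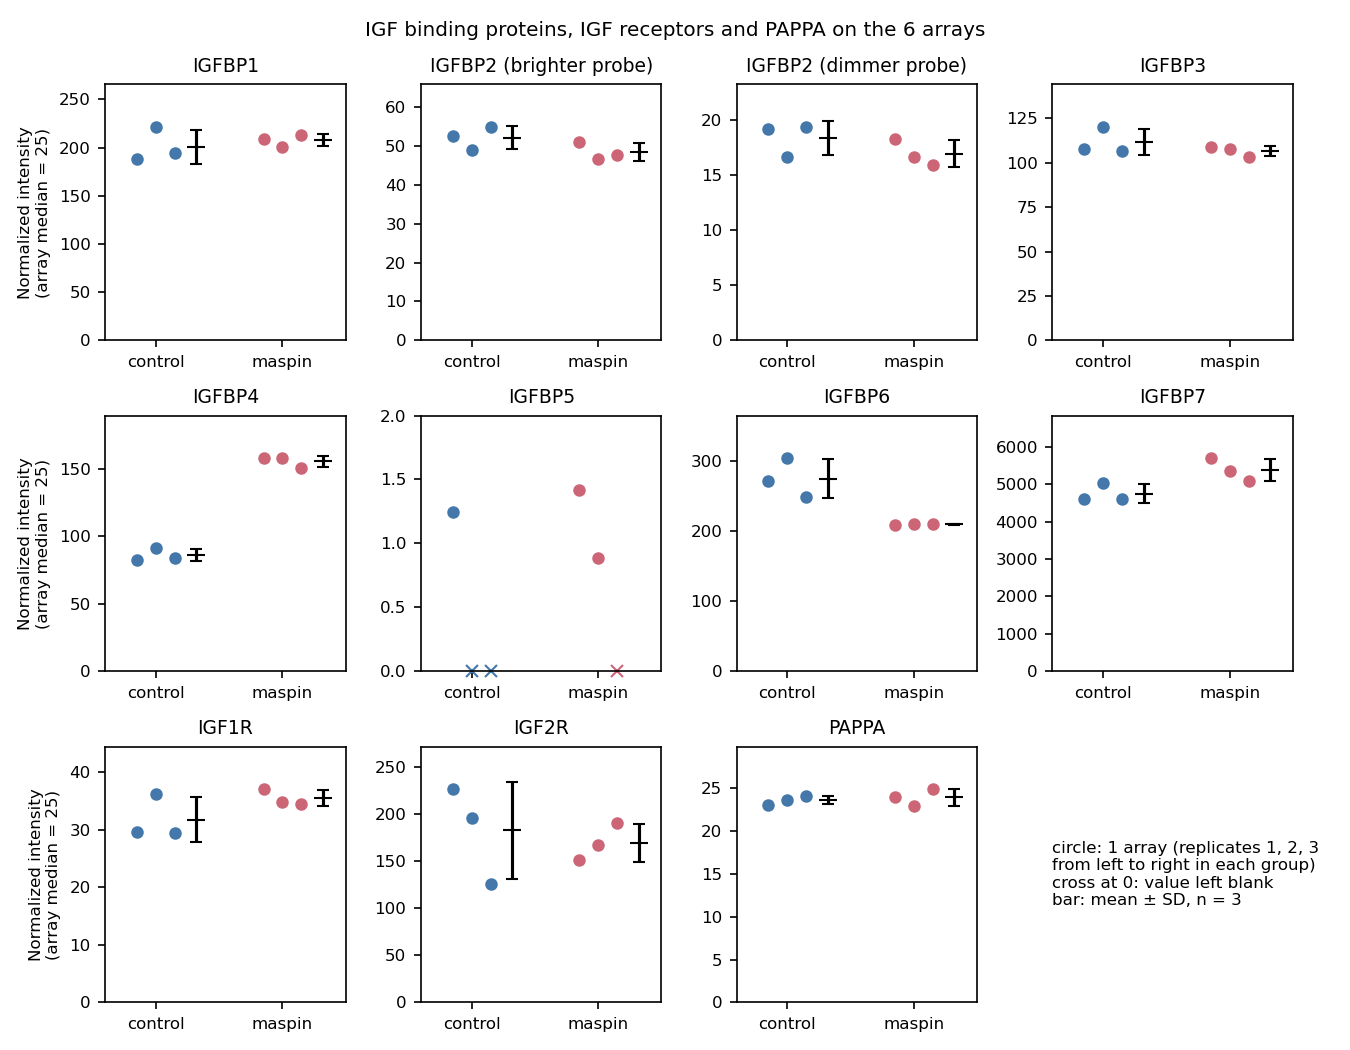
Normalized intensity (array median 25, linear axis from 0) of the 11 probes in each of the 6 arrays, with 1 circle per array, the mean ± SD beside each fully measured group, and a cross where the value was left blank. IGFBP4 separates upwards (83 to 91 against 151 to 158), IGFBP6 and IGFBP7 separate by less, and IGFBP5 is blank on 3 arrays.

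IGFBP6, which binds IGF2 with marked preference over IGF1, lay in the opposite direction. Its normalized intensity was 272, 305 and 249 on control replicates 1, 2 and 3, and 210, 210 and 210 on the 3 arrays labelled MB-231-maspin. All arrays labelled MB-231-maspin lay below all control arrays, and they differed among themselves by far less than the control arrays did (SD 0.463 against 27.8, n = 3 each). The log2 difference was -0.39 (standard error 0.09, 95% interval -0.59 to -0.18), a fold of 0.765, and it did not pass after adjustment (adjusted p = 0.131 from limma, unadjusted p = 0.00267). At an unadjusted p under 0.05, 2 of the 10 member probes were called, IGFBP4 and IGFBP6, where 13.4% of all probes tested were. The call on IGFBP6 depended on the processing: it passed with quantile normalization (-0.44, adjusted p = 0.0248), with normexp background correction followed by quantile normalization (-0.40, adjusted p = 0.00244), with array quality weights (-0.40, adjusted p = 0.0399) and without control replicate 3 (-0.46, adjusted p = 0.0374).
IGFBP7, a matrix-associated protein of the same superfamily, lay at 4597, 5041 and 4599 on control replicates 1, 2 and 3 and 5691, 5344 and 5094 on maspin replicates 1, 2 and 3. The maspin arrays all lay above the control arrays, by a narrow margin between control replicate 2 and maspin replicate 3. The log2 difference was 0.18 (standard error 0.08, 95% interval -0.01 to 0.37, adjusted p = 0.392 from limma). It did not pass under any of the 17 alternative settings (log2 difference 0.14 to 0.22).
The groups did not overlap for 3 of the 10 member probes tested, IGFBP4, IGFBP6 and IGFBP7, beside 20.5% of all probes tested. The ratio between binding proteins within an array, which a common scaling factor cannot change, restates these differences on a relative scale and is given without a test. The log2 ratio of IGFBP4 to IGFBP6 was -1.68 ± 0.09 (SD, n = 3) in MB-231-control and -0.43 ± 0.04 (SD, n = 3) in MB-231-maspin. The ratio was thus 2.36-fold higher in MB-231-maspin. The ratio of IGFBP4 to IGFBP7 was 1.60-fold higher and that of IGFBP4 to IGFBP3 1.89-fold higher, mostly through IGFBP4 itself (log2 difference 0.86, against 0.18 for IGFBP7 and -0.06 for IGFBP3). Normalized intensities include the background subtraction of the authors. Probes annotated to the same transcript can differ in brightness, as the 2 IGFBP2 probes did (control means 52.1 and 18.4). These ratios are therefore relative changes and not ratios of molecules.

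IGFBP1, IGFBP2 and IGFBP3 did not pass, and their groups overlapped. IGFBP3, the main carrier of IGFs in serum, lay at 108, 120 and 107 on control replicates 1, 2 and 3 and at 109, 108 and 103 on maspin replicates 1, 2 and 3. The values overlapped, with a log2 difference of -0.06 (standard error 0.08, 95% interval -0.25 to 0.12, adjusted p = 0.784 from limma). The interval corresponds to folds between 0.843 and 1.09. IGFBP1, which like IGFBP2 carries an RGD motif that binds integrins, lay at 188, 221 and 194 on the control arrays and 209, 201 and 213 on the maspin arrays. Control replicate 2 was above every maspin array, and the log2 difference was 0.05 (standard error 0.09, 95% interval -0.15 to 0.25, adjusted p = 0.847 from limma).
IGFBP2 was measured by 2 probes annotated to the same transcript. The brighter read 52.5, 49.0 and 54.8 on the control arrays and 50.9, 46.7 and 47.7 on the maspin arrays, and the dimmer read 19.2, 16.6 and 19.4 and then 18.3, 16.6 and 16.0. The probes gave nearly the same log2 difference, -0.10 (95% interval -0.29 to 0.08) and -0.12 (95% interval -0.33 to 0.10), and neither passed (adjusted p = 0.620 and 0.634 from limma). IGFBP5, which binds to extracellular matrix, was near the background on every array. Its probe had a value on control replicate 1 (1.25), maspin replicate 1 (1.42) and maspin replicate 2 (0.887), and was blank on the other 3 arrays. Its raw signal was 1.00 to 1.05 times the background, so it was not tested and no fold is given.
Of these genes, IGFBP1 and IGFBP3 are neighbours on chromosome 7 and IGFBP2 and IGFBP5 on chromosome 2, in the RefSeq annotation. The protein-coding neighbours of IGFBP4 on chromosome 17 are TOP2A, a topoisomerase of dividing cells, with a log2 difference of 0.34 (standard error 0.09, adjusted p = 0.176 from limma, by the probe with the smaller p of 2), and TNS4 with -0.10 (adjusted p = 0.608). The neighbours of IGFBP6 on chromosome 12, SPRYD3 and SOAT2, had -0.05 and -0.04. None of these neighbours passed.

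**Figure D2:**
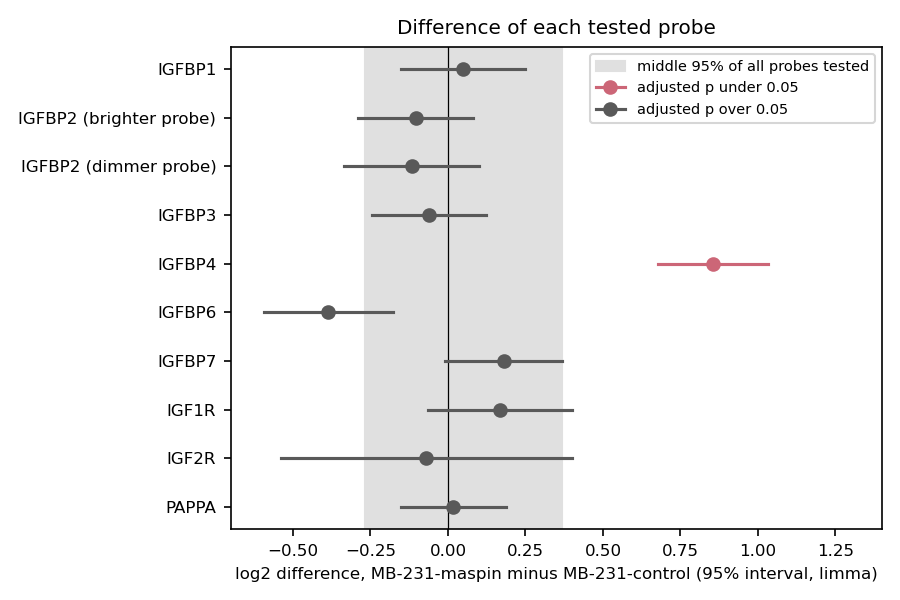
Log2 difference (MB-231-maspin minus MB-231-control) of the 10 tested probes with the 95% interval from limma, against the range that holds the middle 95% of all probes tested (-0.27 to 0.37). IGFBP4 lies to the right of that range with its whole interval, IGFBP6 has its point to the left of it, and the other probes have intervals that include 0.

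IGF1R, the signalling receptor, lay at 29.5, 36.3 and 29.4 on control replicates 1, 2 and 3 and at 37.1, 34.9 and 34.5 on maspin replicates 1, 2 and 3. Control replicate 2 reached into the range of the maspin arrays. The log2 difference was 0.17 (standard error 0.10, 95% interval -0.06 to 0.40, adjusted p = 0.509 from limma), and it was 0.27 (adjusted p = 0.0849) without control replicate 2. That array had the highest control value for 6 of the 10 member probes tested, beside 70.7% of all probes tested.
IGF2R varied most. It lay at 226, 195 and 126 on control replicates 1, 2 and 3 and at 151, 167 and 191 on maspin replicates 1, 2 and 3, so the control arrays spanned the whole range of the maspin arrays. Its coefficient of variation was 28.2% in MB-231-control and 11.9% in MB-231-maspin, and its spread within groups was larger than that of 97.1% of the probes tested. The log2 difference was -0.07 (standard error 0.20, 95% interval -0.54 to 0.40, adjusted p = 0.913 from limma), and the direction turned when single arrays were left out. For IGF2R a fold between 0.688 and 1.32 remained possible, a wider interval than for any other member tested.

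PAPPA, whose product cleaves IGFBP4 in the presence of IGFs and also IGFBP5, was the steadiest member. It lay at 23.1, 23.6 and 24.1 on control replicates 1, 2 and 3 and at 23.9, 22.9 and 24.8 on maspin replicates 1, 2 and 3. The probe was dim, with a raw signal of 1.65 to 1.80 times the background, which limits what its small spread can show. The groups overlapped, and the log2 difference was 0.02 (standard error 0.07, 95% interval -0.15 to 0.19, adjusted p = 0.940 from limma), a fold between 0.900 and 1.14. Arrays measure the mRNA and say nothing of how much protease was active or how much IGFBP4 was cleaved.
Over the 10 tested probes, 5 lay above 0 and 5 below, with a median log2 difference of -0.02 beside 0.03 for all probes tested. All 10 were brighter than the brightest negative control spot on every array. Some were still dim: the raw signal was 1.42 to 1.59 times the background for the dimmer IGFBP2 probe and 1.83 to 2.23 times for IGF1R. Whether such signals come from the named transcripts alone was not tested.

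The rest of the IGF system was read from 8 lists with 78 genes, of which 76 were on the array and 58 were tested with 63 probes. Of these probes 1 passed the adjusted threshold in limma, upwards, and 7 were higher and 0 lower at an unadjusted p under 0.05, where 9.48% of all probes tested were higher and 3.87% lower. Among the 7 was BRAF, which averaged above the minimum in MB-231-maspin only. None of the 63 passed the methods' t-test after adjustment. The median log2 difference was 0.08 beside 0.03 for all probes tested, and 44 of the 63 lay above 0 beside 59.3% of all probes tested. The median of all probes was itself 0.09 without control replicate 2.
Among the receptor adaptors and inhibitors, SOCS2, a suppressor of cytokine signalling that dampens growth hormone action, was the 1 gene that passed, of 9 tested. Of their 9 probes, 7 lay above 0. It lay at 24.2, 27.6 and 23.0 on control replicates 1, 2 and 3 and at 42.4, 40.0 and 40.3 on maspin replicates 1, 2 and 3. The groups were well apart, with a log2 difference of 0.72 (standard error 0.09, adjusted p = 0.0112 from limma), a fold of 1.64. Its call was lost without control replicate 1 (adjusted p = 0.0862) and without maspin replicate 1, 2 or 3 (0.0825, 0.0868 and 0.0800), and in the methods' t-test (0.116). IRS1 and IRS2, the docking proteins beneath IGF1R, had log2 differences of 0.0032 and 0.06 and did not pass.

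**Figure D3:**
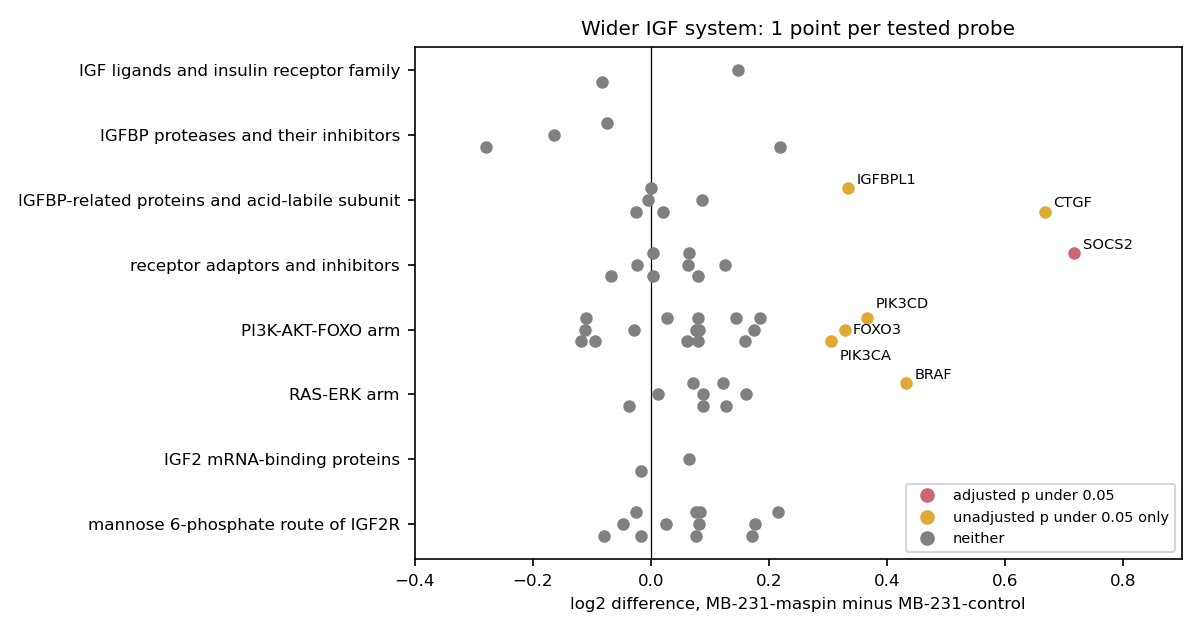
Log2 difference (MB-231-maspin minus MB-231-control) of each of the 63 tested probes of the wider IGF system by list, with probes at an unadjusted p under 0.05 named. SOCS2 at 0.72 is the probe past the adjusted threshold, and the 6 others named lie between 0.31 and 0.67.

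Of the ligands and insulin receptor family, 2 of 5 genes were bright enough to test. By limma, IGF1 had a log2 difference of -0.08 (adjusted p = 0.772, standard error 0.10) and IGF2 one of 0.15 (adjusted p = 0.861, standard error 0.28). The insulin receptor gene INSR lay between 1.98 and 3.89 on the 6 arrays, under the minimum. Among the proteases and their inhibitors, 4 of 8 genes were tested and 0 passed, nor did any at an unadjusted p or in the methods' t-test. The smallest p was that of STC2, a stanniocalcin that blocks PAPP-A, which read 14.0, 12.8 and 10.7 on the control arrays and 8.51 to 11.5 on the maspin arrays (log2 difference -0.28, standard error 0.14, adjusted p = 0.444 from limma). PAPPA2, the relative of PAPPA, was under the minimum on all 6 arrays, at 4.76 to 8.37.
Of the IGFBP-related proteins and the acid-labile subunit IGFALS, 7 of 10 genes were tested and 0 passed after adjustment in limma or the methods' t-test, with 2 higher at an unadjusted p. IGFBPL1, an IGFBP-like secreted protein, lay at 16.6, 18.8 and 16.9 and then at 21.6, 22.1 and 22.0 (log2 difference 0.33, standard error 0.08, adjusted p = 0.134). CTGF, a matricellular protein now named CCN2 and singled out here after its values were seen, lay at 1176, 1417 and 830 on the control arrays and 1923, 1745 and 1654 on the maspin arrays. Its groups did not overlap, with a log2 difference of 0.67 (standard error 0.18, adjusted p = 0.177 from limma). CYR61, its relative now named CCN1, had -0.0046 (standard error 0.09).
Downstream of the receptor, 15 of 20 genes of the PI3K-AKT-FOXO arm were tested with 18 probes. After adjustment 0 passed, by limma or by the methods' t-test, and 3 were higher at an unadjusted p in limma. Those 3 were PIK3CD, a catalytic subunit of PI3K, with 0.37 (standard error 0.08, adjusted p = 0.124), and, named after their values were seen, PIK3CA with 0.31 and FOXO3 with 0.33. A second PIK3CD probe had 0.03 (standard error 0.12), so the probes of that gene disagreed. AKT1, a kinase at the centre of this arm, had 0.08 (standard error 0.09) and did not pass. In the RAS-ERK arm 9 of 10 genes were tested and 0 passed in either test after adjustment. BRAF, with the smallest p, lay close to the minimum at control and maspin means of 8.43 and 11.1 (log2 difference 0.43, standard error 0.18, adjusted p = 0.353). Only its maspin mean exceeded the minimum of 10, so BRAF was tested through the group in which it was higher. The filter thus favoured an upward difference, and no conclusion is drawn from the calls on BRAF. Without control replicate 2, BRAF and the first PIK3CD probe passed in limma (log2 differences 0.66 and 0.43, adjusted p = 0.0476 for each). That PIK3CD probe also passed with array quality weights (adjusted p = 0.0444) and with normexp followed by quantile normalization (adjusted p = 0.0483), and BRAF had 0.25 (adjusted p = 0.467) without control replicate 3 and 0.11 (adjusted p = 0.296) with normexp followed by quantile normalization.
On the mannose 6-phosphate route, which IGF2R serves, 10 of 11 genes were tested with 12 probes and 0 passed after adjustment, at an unadjusted p or in the methods' t-test. GNPTAB, which builds the mannose 6-phosphate tag, had 0.17 (adjusted p = 0.426), and M6PR, the smaller mannose 6-phosphate receptor, -0.02. Of the IGF2 mRNA-binding proteins, 2 of 3 genes were tested, with 0.06 for IGF2BP2 and -0.02 for IGF2BP3, and neither passed.

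The genes whose values followed IGFBP4 most closely over the 6 arrays were INHBA, a subunit of activin, CHRAC1, a chromatin accessibility subunit, and CD24, a surface glycoprotein. Pearson's r of the log2 values was 0.999 for each, a description over 6 arrays in 2 groups, in which any gene with a steady difference between the lines ranks high. Their log2 differences ran from 0.29 for CHRAC1, which did not pass (adjusted p = 0.134 from limma), over 1.11 for INHBA to 1.84 for CD24. IGFBP4 with 0.86 lay within that span.

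**Figure D4:**
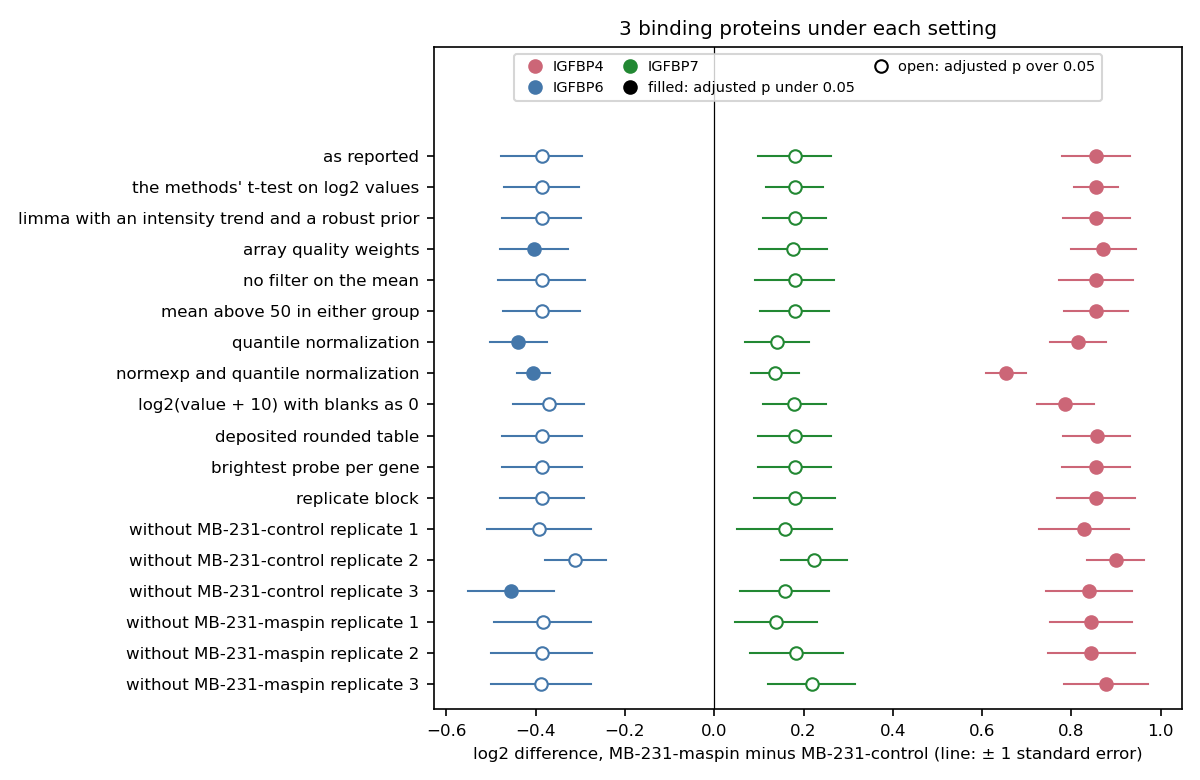
Log2 difference (MB-231-maspin minus MB-231-control, ± 1 standard error) of IGFBP4, IGFBP6 and IGFBP7 as reported and under 17 alternative settings, filled where the adjusted p is under 0.05. IGFBP4 stays filled between 0.65 and 0.90, IGFBP6 is filled in 4 of the 17 alternatives, and IGFBP7 is open throughout.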

How the data were processed

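Total RNA of the 2 lines was amplified, labelled with Cy5 and hybridised in 1 colour to 3D-Gene human oligonucleotide arrays. The deposited scanner files give raw intensity, intensity after the authors subtracted the mean background, and a normalized intensity for which the authors set every array's median to 25. The deposited table of the series holds the last as a score rounded to whole numbers (largest difference 0.500). Flagged spots were left out. Of the probes, 22967 carry a gene symbol. All probes with a mean above 10 in either group, the study's minimum, and measured on 2 or more arrays of each group were fitted as log2 values with limma 3.58.1 (lmFit and eBayes, two-sided) in R 4.3.3, with Benjamini-Hochberg adjustment over 14903 probes and a threshold of 0.05. The code was tested on simulated data. Figures were made with Python 3.11.15 and matplotlib 3.10.9. The number of arrays limits the precision.

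The members, lists and tests were chosen with earlier results of these data known. Named were all members, of each list the genes past the threshold or else the one with the smallest p, and the 3 genes most like each member that passed, unless marked as chosen after their values were seen. IRS1, IRS2, IGF2, INSR, PAPPA2, CYR61, AKT1, M6PR, IGF2BP3, the second PIK3CD probe, single markers and the neighbouring genes fall outside this rule and were also chosen after their values were seen. Alternatives were leaving out each array in turn, blocking on replicate number, the methods' t-test, array weights, a robust limma prior with trend, quantile normalization alone or after normexp (offset 50), a minimum mean of 50 or none, the brightest probe per gene, the rounded table, and blanks set to 0 before log2(value + 10). The value of 1 gene of the lists is not reported here. Genome build of the probe annotation: not given in the sources used here. Promoters come from RefSeq (GRCh38.p14).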

Additional observations from a re-analysis of the deposited data

How the results depend on the processing

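IGFBP4 kept its direction and its call in all 17 alternatives (log2 difference 0.65 to 0.90), 0.83 to 0.90 with single arrays left out. IGFBP6 kept its direction in all 17 (-0.46 to -0.31) and passed in 4 of them, with array weights (-0.40), quantile normalization (-0.44), normexp followed by quantile normalization (-0.40, called normexp from here) and without control replicate 3, over a range of -0.46 to -0.31 with arrays left out. In the same 4 settings 2 member probes passed in place of 1, so that the count with arrays left out ran from 1 to 2. The count over all probes, 126, was 25 with the methods' t-test, 264 with array weights, 48 with no filter, 49 with a mean above 50 and 286 with normexp. It ran from 37 to 208 with arrays left out, with 171 higher and 37 lower without control replicate 2 and 90 higher and 104 lower without control replicate 3. The count over the wider system, 1, was 0 with the methods' t-test, no filter or a mean above 50, 2 with array weights or normexp, and 0 to 3 with arrays left out, 3 of them without control replicate 2. Those 3 were SOCS2, PIK3CD and BRAF, of which BRAF was tested only through the group in which it was higher. SOCS2 lost its call in 6 of 16 alternatives and kept its direction. Directions that turned belonged to genes that did not pass: IGFBP1 (-0.0084 with quantile normalization and -0.016 with normexp), PAPPA (-0.0041 with array weights, and -0.011 to 0.049 with arrays left out), IGF2R (-0.32 to 0.11 with arrays left out, above 0 without control replicate 1, control replicate 2 or maspin replicate 1) and IGF2BP2 (-0.027 with array weights, and -0.045 to 0.13 with arrays left out). The cause was not tested. With the replicate number as a block IGFBP4 had 0.86 and IGFBP6 -0.39, 1 member probe passed, and 139 probes passed in all. Deviations of same-numbered arrays correlated at -0.34, 0.49 and 0.22, and those of differently numbered arrays at -0.49 to 0.29. Deviations were taken from the mean of each group of 3, which ties these correlations to each other. They therefore cannot decide whether the numbers pair the samples. Dim probes are limited by the background, above all IGFBP5.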
